A study of Rattus norvegicus with 6 samples.

Results

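Sfrp4, which encodes a secreted Wnt antagonist, and Gpc3, which encodes the cell-surface proteoglycan glypican-3, differed in opposite directions between the adrenal glands of a hypertensive and a normotensive rat strain. For Gpc3 this rests on 1 of its 3 probe sets, and the others overlapped between the strains. The members were all probe sets annotated to Sfrp4, Gpc3 or Ctnnb1. They came to 4 of the 8740 probe sets left after controls were removed, 1 for Sfrp4 and 3 for Gpc3, and no probe set was annotated to Ctnnb1, which encodes beta-catenin, so it was not analysed here. Whole adrenal glands of the inbred Spontaneously Hypertensive Rat (SHR) and of the Wistar-Kyoto rat (WKY) were profiled on 6 Affymetrix RG-U34A arrays, 3 per strain, with no treatment named for either group. The labels name no age, sex or number of animals, so the spread between arrays of a strain may be technical. Each probe set has 1 intensity per array, a scaled brightness on a linear scale. Sfrp4 and Gpc3 were chosen by their intensity difference between the strains on these same arrays, so their own differences are a description and carry no test.

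Secreted Wnt proteins bind Frizzled receptors at the cell surface, which stops the breakdown of beta-catenin and lets it drive transcription with TCF and LEF factors. Secreted Frizzled-related proteins such as Sfrp4 bind Wnts outside the cell and mostly dampen the signal. Glypican-3 is held to the membrane by a lipid anchor, carries heparan sulphate chains, and modulates Wnt, Hedgehog and growth factor signals; its loss causes an overgrowth syndrome. In the adrenal cortex, Wnt and beta-catenin signalling is known for its activity in the outer zone that makes aldosterone.

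Of Sfrp4 and Gpc3, only Gpc3 had an entry in the promoter set used here, so its upstream sequence alone is shown. It is the 250 bases before the annotated start in RefSeq's GRCr8 assembly of a BN rat, a strain outside this study, at chrX:137157599-137157848 on the minus strand. Capitals mark the GC box, written GGGCGG or on the other strand CCGCCC.
Gpc3: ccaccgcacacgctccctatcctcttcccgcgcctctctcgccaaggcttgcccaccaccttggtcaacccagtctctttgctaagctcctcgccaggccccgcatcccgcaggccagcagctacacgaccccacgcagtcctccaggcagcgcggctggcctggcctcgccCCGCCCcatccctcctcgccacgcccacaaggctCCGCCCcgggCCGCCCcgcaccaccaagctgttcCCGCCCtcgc
This stretch was 71.6% G or C and held 22 CpG pairs, against medians of 51.2% and 5 over 33469 rat promoters of the same length. It held 4 GC boxes, a motif found on either strand in 30.5% of those promoters. The letters TATAAA (12.9% of promoters), CCAAT (34.02%) and CTTTGAT, a TCF/LEF core (3.15%), did not occur on either strand of the window. A match describes letters and is not a binding site.

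The arrays were of adrenal tissue by their markers, with the steroidogenic genes Star and Cyp11a1 and the chromaffin cell genes Th and Pnmt all bright in both strains. Array medians lay between 801.2 and 903.3. Hybridization runs were set here from the clock time of each array, without the date, and no label names them. By these times, SHR replicate 1 and the 3 WKY arrays fell in a first run. SHR replicates 2 and 3 fell in a second run that held no WKY array. The ratio of 3' to 5' signal of the hexokinase control ran from 1.96 to 2.54 on 5 arrays and reached 4.21 on SHR replicate 2. That of the GAPDH control ran from 0.901 to 1.14 over all arrays and was 0.947 on SHR replicate 2. Over 5244 probe sets bright enough to test, limma called 102 at an adjusted p under 0.05, or 1.95%, and 13.9% had an unadjusted p under 0.05. The strains did not overlap in 17.1% of all 8740 probe sets and in 20.7% of those tested.

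Sfrp4 read 5345.7, 4764.5 and 6245.4 in SHR replicates 1, 2 and 3, and 1393.4, 954.1 and 527.6 in WKY replicates 1, 2 and 3 (probe set AF012891_at). All 3 SHR arrays lay above all 3 WKY arrays, and relative to their mean the WKY arrays were the more spread out. The means were 5452 ± 746 in SHR and 958 ± 433 in WKY (SD, n = 3 each), a ratio of 5.69. The coefficient of variation was 13.7% in SHR and 45.2% in WKY. On the scale log2(intensity + 181.5), where the added constant damps noise in dim probe sets, SHR minus WKY was 2.37 ± 0.35 (SE), and a gap of 1.65 separated the lowest SHR array from the highest WKY array.

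The Sfrp4 difference was of like size for the SHR arrays of either hybridization run. SHR replicate 1, the one SHR array hybridized beside the WKY arrays, stood 2.35 above their mean on the log2 scale. SHR replicates 2 and 3 stood 2.38 above it. Fluidics modules 1 and 2, units of the washing station, each held 1 array of each strain, and the difference was 1.65 within module 1 and 2.50 within module 2.

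Gpc3 read 357.3, 454.6 and 309.2 in SHR replicates 1, 2 and 3, and 1481.4, 1383.2 and 1615.2 in WKY replicates 1, 2 and 3, by its brightest probe set (M22400_at). All 3 SHR arrays lay below all 3 WKY arrays, and neither strain had an array that stood apart. The means were 374 ± 74.1 in SHR and 1493 ± 116 in WKY (SD, n = 3 each), so WKY read 3.996 times as bright. SHR minus WKY was -1.60 ± 0.12 (SE, log2), with a gap of 1.30 between the strains. The log2 value rests on the added constant more than that of Sfrp4 does, since the SHR arrays are dim: it was -2.01 with a constant of 1. The SHR array of the first run stood at -1.63 from the WKY mean and those of the second run at -1.58, and the difference was -1.39 within module 1 and -1.67 within module 2.

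The other Gpc3 probe sets did not separate the strains. The one named rc_AI071104_at read 915.7, 216.0 and 190.7 in SHR replicates 1, 2 and 3, and 902.6, 500.4 and 844.9 in WKY replicates 1, 2 and 3. SHR replicate 1, of the first run, was the highest of the 6 arrays, and SHR replicates 2 and 3, of the second run, were the lowest. Its difference was -0.74 ± 0.55 (SE, log2) over all arrays, 0.27 within the first run and -1.25 for the SHR arrays of the second run against WKY; the part of the run in this was not tested.

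The third Gpc3 probe set, rc_AA963857_at, read 149.7, 230.0 and 541.1 in SHR replicates 1, 2 and 3, and 142.9, 498.8 and 490.5 in WKY replicates 1, 2 and 3. Each strain had arrays near 150 and arrays near 500, and the ranges overlapped almost fully. Its difference was -0.20 ± 0.49 (SE, log2). It and rc_AI071104_at fell below the brightness filter, which required a mean log2 value above the 40th percentile, while M22400_at and the Sfrp4 probe set passed. That level was 9.474, and rc_AI071104_at missed it narrowly at 9.462. M22400_at passed only through its WKY arrays, with a mean log2 value of 10.71 in WKY and 9.108 in SHR. Of the 4 member probe sets, 1 therefore lay wholly higher in SHR, as 8.24% of all probe sets did, and 1 wholly lower, as 8.90% did; the genes were picked for this, so nothing follows from the count. The account of Gpc3 as lower in SHR rests on 1 of its 3 probe sets.

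**Figure D1:**
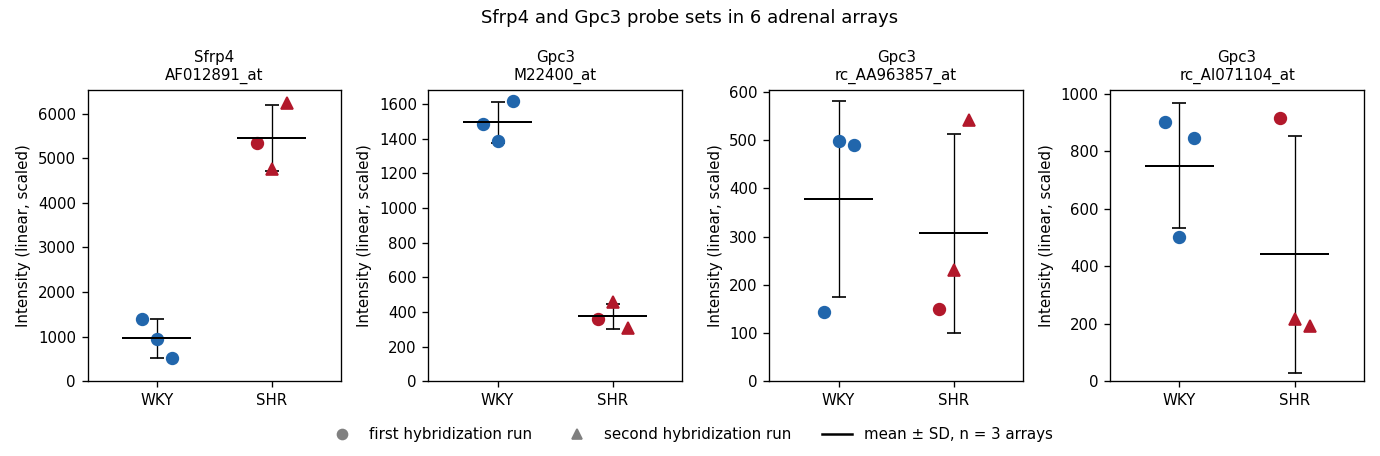
Intensity of the Sfrp4 probe set and the 3 Gpc3 probe sets in each array (linear scale, from 0), by strain; circles are arrays of the first hybridization run, triangles those of the second, and bars give the mean ± SD of 3 arrays. Sfrp4 is higher in all SHR arrays and M22400_at lower in all of them, whereas in rc_AI071104_at the SHR array of the first run reads 915.7, above every WKY array.

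Over the alternatives tried, the difference ran from 1.65 to 2.64 for Sfrp4 and from -2.01 to -1.01 for M22400_at. The strains did not overlap in these probe sets, which were chosen for their difference. Left-out arrays, blocks and pseudocounts could therefore not change the sign, and that it held is no support. The Gpc3 probe sets below the filter changed sign, with rc_AI071104_at running from -1.45 to 0.27 and rc_AA963857_at from -0.68 to 0.34.

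**Figure D2:**
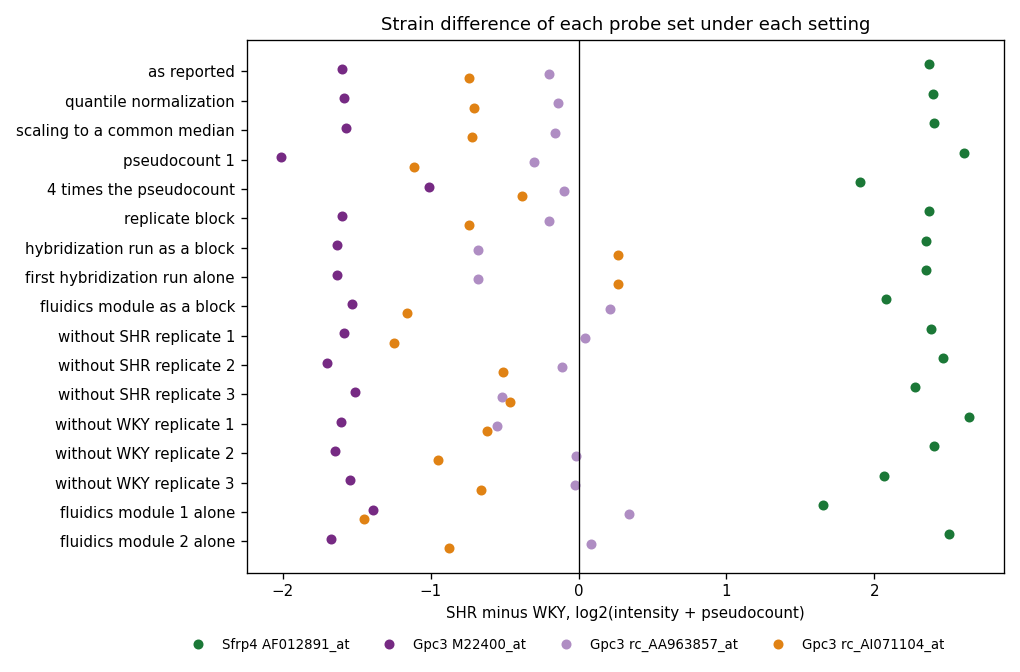
SHR minus WKY on the log2(intensity + pseudocount) scale (horizontal) for the 4 probe sets under each normalization, pseudocount, block and set of arrays (vertical). Sfrp4 stays between 1.65 and 2.64 and Gpc3 M22400_at between -2.01 and -1.01, while both Gpc3 probe sets below the filter cross 0.

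Other Wnt ligands, receptors and secreted modulators were thinly covered. Of 53 genes listed, 6 had a probe set of their own and 4 were bright enough to test with limma; 0 rose, 0 fell, and 1 had an unadjusted p under 0.05. All 4 were lower in SHR in sign, with a median log2 difference of -0.24, where the median of all 3144 tested genes was -0.01 and 1.65% of them were called. Fzd1, a Frizzled receptor for Wnts, read 1679.6, 1318.6 and 1389 in SHR replicates 1, 2 and 3, and 2129.8, 1869.9 and 2061.9 in WKY replicates 1, 2 and 3. The strains did not overlap, and the difference was -0.43 ± 0.17 (SE, log2; limma adjusted p = 0.317). Lgr4, a receptor for the R-spondins that amplify Wnt signals, was at -0.29 (0.493), and Ryk, a Wnt co-receptor, was at -0.15 (0.816). The fourth was Tle1, at -0.20 (0.748). It is a corepressor of TCF factors and so not of the class the list names, and it is also counted under Wnt signal transduction.

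Fzd2, a second Frizzled receptor, was too dim to be tested. It read 156.9, 245.1 and 428.9 in SHR replicates 1, 2 and 3, and 767.7, 526 and 788.5 in WKY replicates 1, 2 and 3. No SHR array reached the lowest WKY array, and with the filter removed the difference was -0.96 ± 0.31 (SE, log2; limma adjusted p = 0.271). No probe set was annotated to Wnt4 or to another Sfrp gene, so these were not analysed here.

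Inside the cell, 28 of 79 listed genes of Wnt signal transduction were tested by limma. Of these, 0 rose, 0 fell and 3 had an unadjusted p under 0.05, as did 409 of all 3144 tested genes. Their median log2 difference was 0.02, with 16 positive and 12 negative. Those of smallest p were Ppp2r5a, a regulatory subunit of protein phosphatase 2A, at -0.55 ± 0.16 (SE; limma adjusted p = 0.160), the stress kinase Mapk9 at 0.53 ± 0.18 (0.224), Csnk2a1, the catalytic subunit of casein kinase 2, at 0.49 ± 0.20 (0.328) and the phospholipase Plcb1 at 0.34 ± 0.15 (0.369). The core of the complex that marks beta-catenin for breakdown showed no call: Axin1 was at 0.22 (0.675), Gsk3a at -0.11 (0.849) and Csnk1a1 at -0.03 (0.951). Apc was at 0.06 (0.937) and Gsk3b at 0.12 (0.862).

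Axin2, a scaffold of that complex and a widely used readout of beta-catenin activity, was left out by the brightness filter. It read 146.1, 147.4 and 129 in SHR replicates 1, 2 and 3, and 666.4, 550.7 and 695.2 in WKY replicates 1, 2 and 3 (probe set AF017757_at). The 3 SHR arrays lay close together, below the added constant of 181.5, and every WKY array was above them. The means were 141 ± 10.3 in SHR and 637 ± 76.5 in WKY (SD, n = 3 each), and no fold is given against SHR values this dim.

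With no filter, where limma called 83 of 8740 probe sets (0.950%), Axin2 fell in SHR by 1.34 on the log2 scale (SE 0.22, adjusted p = 0.0419). The size rests on the added constant: it was -2.17 with a constant of 1 (limma adjusted p = 0.0449) and -0.65 with 4 times the constant (0.0336). Axin2 was the 1 called among 108 probe sets of listed genes below the filter, and it was singled out after its values were seen. The call did not hold with the hybridization run as a block (-1.32, limma adjusted p = 0.352), with the fluidics module as a block (0.377), or in any of the 6 fits without 1 array, each of the 3 SHR and 3 WKY arrays in turn (adjusted p from 0.0867 to 0.186). Its sign was negative in all of these.

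Genes described as targets of beta-catenin differed in both directions. Of 48 listed, 21 were tested by limma; 0 rose, 1 fell and 20 did not pass, a share called of 4.76% beside 1.65% of all tested genes. An unadjusted p under 0.05 was found for 9 of the 21, 4 higher and 5 lower in SHR, and for 409 of all 3144 tested genes. The median log2 difference was -0.13, with 8 positive and 13 negative. The gene called was Fn1, which encodes the matrix protein fibronectin, at 968 ± 127 in SHR and 2118 ± 331 in WKY (SD, n = 3 each; probe set X05834_at). It fell by 1.00 (log2, SE 0.19; limma adjusted p = 0.0481). The call was lost with the run as a block (-0.89, 0.391) and in every one of the 6 fits without 1 array, SHR or WKY (0.0731 to 0.162). Of the 4 other Fn1 probe sets, 2 were tested and did not pass, at -0.46 (0.659) and -0.58 (0.662), and 2 were below the filter, at -0.06 and -0.24.

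These counts take each gene by its brightest tested probe set, and a dimmer probe set of Jun, a transcription factor gene of the AP-1 family, passed with a larger difference than Fn1. It was singled out after its values were seen. It read 3499.5, 3591.7 and 3041 in SHR replicates 1, 2 and 3, and 8244.4, 7765.5 and 11479.1 in WKY replicates 1, 2 and 3 (rc_AA945867_at). The SHR arrays all lay below the WKY arrays, and the difference was -1.37 ± 0.18 (SE, log2; limma adjusted p = 0.00922), where 1.95% of all tested probe sets were called. The call held in all 6 fits without 1 array (limma adjusted p from 0.0204 to 0.0462) and was lost with the run (-1.32, 0.162) or the fluidics module (-1.23, 0.0903) as a block. The other Jun probe sets did not pass and differed in sign, the brightest at -0.49 (limma adjusted p = 0.140) and the others at -0.46 (0.541) and 0.58 (0.673).

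Fn1 is also a matrix gene, and several matrix markers fell in SHR. Of 21 tested markers of fibroblasts and capsule, limma called 4 lower and 0 higher, Col3a1, Col1a2, Col5a1 and Col1a1, a share of 19% beside 1.65% of all tested genes; 9 of the 21 had an unadjusted p under 0.05, all lower in SHR. The markers' summed intensity ran from 128700 to 145400 in SHR and from 164500 to 185000 in WKY, and none was at 0. Gpc3 lay lower in the same arrays as these markers and Sfrp4 lay higher. The part of the matrix markers in either difference was not tested, and in whole glands fewer cells of a type and less RNA per cell cannot be told apart.

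The summed markers of chromaffin cells (44100 to 55220 in SHR, 57410 to 67240 in WKY) and of nerve and Schwann cells (4804 to 5016, and 6342 to 7054) were also lower in SHR without overlap. Those of smooth muscle were higher without overlap, from 23920 to 25070 against 17990 to 23670. A sum leans on its brightest genes, and single markers differed in sign. Of 5 smooth muscle markers, 3 were higher and 2 lower in SHR, at a median log2 difference of 0.14. Of 11 chromaffin cell markers, 8 were lower and 3 higher, and of 5 nerve markers, 4 were lower and 1 higher. Limma called Dbh lower among 11 chromaffin cell markers (9.09%), Acta2 higher among 5 of smooth muscle (20%), Cfd lower among 9 of adipocytes (11.1%) and Cd74 lower among 8 of leukocytes (12.5%), 1 gene each, where 1.65% of all tested genes were called. An unadjusted p under 0.05 was found for 6 chromaffin cell markers, 5 lower and 1 higher, and for 1, 2 and 2 of the other lists in that order. It called 0 among 5 nerve, 6 endothelium, 10 steroid cell and 8 kidney and liver markers, where 2, 0, 2 and 1 had an unadjusted p under 0.05. The sums over adipocyte, endothelium, leukocyte, steroid cell, and kidney and liver markers overlapped between the strains. The share of these cell types in the results for Sfrp4 and Gpc3 was not tested.

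Beta-catenin also links cadherins to the cytoskeleton at cell junctions. Of 39 genes of cadherins, catenins and the adherens junction, 14 were tested by limma. Of these, 1 rose, 0 fell and 13 did not pass, at a median log2 difference of -0.07. The share called was 7.14%, from 1 gene, beside 1.65% of all tested genes. An unadjusted p under 0.05 was found for 2 of the 14 and for 409 of all 3144 tested genes. Cdh22, a cadherin known mainly from brain, read 11108.3, 12429.9 and 13386.3 in SHR replicates 1, 2 and 3, and 7228.2, 3945.4 and 5566.5 in WKY replicates 1, 2 and 3 (probe set D83349_at). The SHR arrays all lay above the WKY arrays. Cdh22 rose by 1.15 ± 0.21 (SE, log2; limma adjusted p = 0.0403).

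The Cdh22 call held without WKY replicate 1 (limma adjusted p = 0.0283) and was lost without SHR replicate 1, 2 or 3 or WKY replicate 2 or 3 (0.0670 to 0.163) and with the run as a block (1.01, 0.376). The second Cdh22 probe set, D83348_at, read 43.1 ± 6.47 in SHR and 40.7 ± 14.1 in WKY (SD, n = 3 each), below the filter. Jup, which encodes plakoglobin, the closest relative of beta-catenin, was at -0.37 ± 0.21 (limma adjusted p = 0.472), and Cdh2, or N-cadherin, was at -0.30 ± 0.22 (0.596) by its brighter probe set.

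Among the relatives of Gpc3, 14 of 45 listed glypicans, syndecans and enzymes of heparan sulphate were tested, and limma called 0 in either direction. Their median log2 difference was 0.12, and 1 had an unadjusted p under 0.05, beside 409 of all 3144 tested genes. Gpc1, the one other glypican bright enough to test, read 2428.3, 3401.9 and 2868.6 in SHR replicates 1, 2 and 3, and 1699.6, 1528.1 and 2413.8 in WKY replicates 1, 2 and 3. The strains only just failed to overlap, and the difference of 0.59 ± 0.21 (SE) was opposite in sign to that of Gpc3 but did not pass (limma adjusted p = 0.263). Gpc2 and Gpc6 were below the filter, with overlapping strains.

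The others of smallest p in that list were Agrn, which encodes the basement membrane proteoglycan agrin, at -0.36 ± 0.17 (limma adjusted p = 0.393), Hs6st1, a heparan sulphate sulphotransferase, at -0.35 ± 0.17 (0.413) and Xylt2, which starts the sugar chain, at 0.71 ± 0.35 (0.414). The syndecan genes Sdc1, Sdc2, Sdc3 and Sdc4 overlapped between the strains. Tgfbr3, or betaglycan, which carries heparan sulphate chains too and was singled out after its values were seen, had 1 probe set at 0.69 ± 0.16 (0.0890) and a brighter one at 0.25 ± 0.27 (0.727).

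Growth factors and receptors that bind heparan sulphate gave 0 calls by limma among 31 tested of 62 listed, at a median log2 difference of 0.05. An unadjusted p under 0.05 was found for 2 of them, beside 409 of all 3144 tested genes. Fgf7, the keratinocyte growth factor, was at 11950 ± 3646 in SHR and 4705 ± 1623 in WKY (SD, n = 3 each), with no overlap and a difference of 1.32 ± 0.31 (SE, log2; limma adjusted p = 0.0890). Fgf9 was at 1.05 ± 0.32 (0.179), Igf1 at 0.53 ± 0.24 (0.374) and its receptor gene Igf1r at 0.27 ± 0.14 (0.426). Igf2, a fetal growth factor often discussed with glypican-3 because their overgrowth syndromes look alike, had 6 probe sets that all overlapped between the strains. The brightest of them was at 3485 ± 753 in SHR and 3220 ± 258 in WKY, a difference of 0.09 ± 0.19 (limma adjusted p = 0.870).

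**Figure D3:**
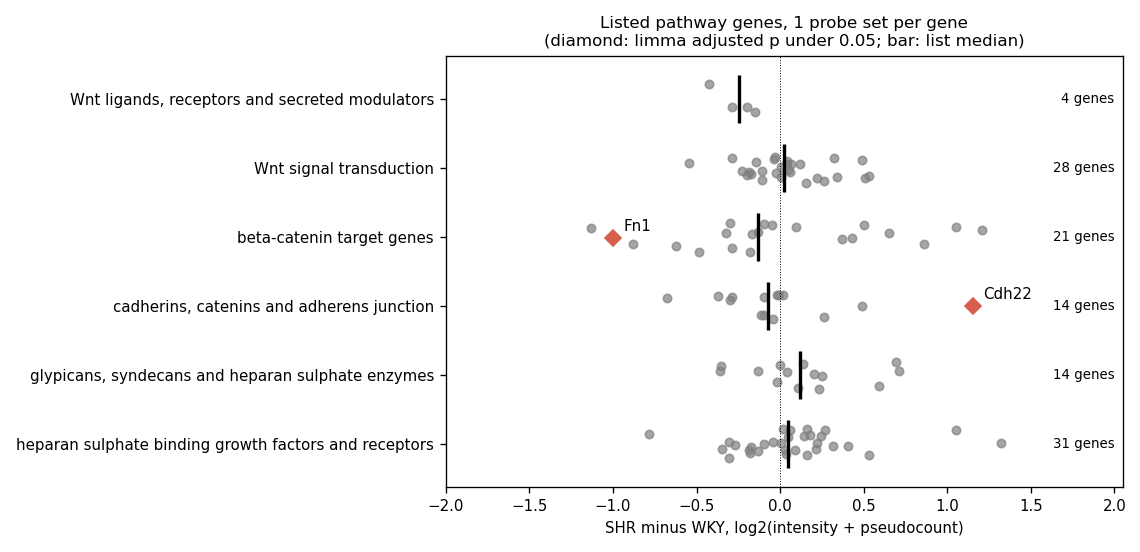
SHR minus WKY on the log2(intensity + pseudocount) scale (horizontal) for the tested genes of 6 lists (vertical), 1 probe set per gene; diamonds passed limma's adjusted p of 0.05 and black bars are list medians. List medians lie between -0.24 and 0.12, and Fn1, lower in SHR, and Cdh22, higher, are the calls among the probe sets drawn, which leave out the dimmer Jun probe set that passed.

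**Figure D4:**
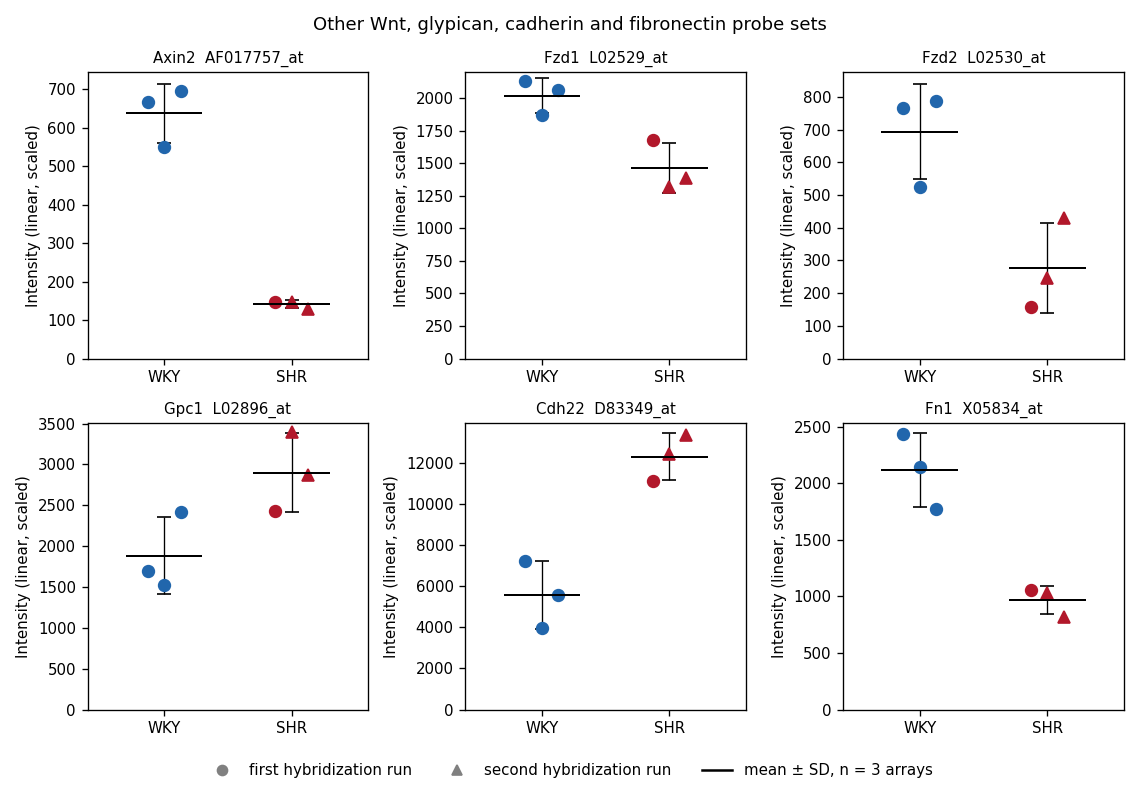
Intensity in each array (linear scale, from 0) of Axin2, Fzd1, Fzd2, Gpc1, Cdh22 and Fn1 by strain; circles are arrays of the first hybridization run, triangles those of the second, bars the mean ± SD of 3 arrays. The SHR arrays of Axin2 sit between 129 and 147.4 and its WKY arrays between 550.7 and 695.2.

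The genes with the pattern most like each member were sought among 3142 other tested genes by Pearson's r over the 6 arrays, as a description. With 3 arrays of each strain, such an r carries the strain difference itself. For Sfrp4 they were Nxph4 (r = 0.995), Akt2 (0.990), Trappc6b (0.989), Ctsd (0.986) and Kif12 (0.984). Akt2, a kinase of insulin signalling, averaged 3436 in SHR and 1935 in WKY, and Ctsd, the lysosomal protease cathepsin D, 22680 and 15310.

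For Gpc3, by M22400_at, the most alike were Gpr20 (r = 0.988), Plrg1 (0.985), Dlk1 (0.983), Pcbp4 (0.981) and Cst3 (0.978). Dlk1, a membrane protein of immature cells, averaged 24580 in SHR and 29310 in WKY, and Cst3, the protease inhibitor cystatin C, 5415 and 9352. These 5 differed between the strains by -0.77 to -0.25 on the log2 scale, less than Gpc3, which was chosen for its difference.

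Of the 5 protein-coding genes on each side of Sfrp4 in the reference annotation, Amph alone had a probe set of its own, at a log2 difference of 0.39 (limma adjusted p = 0.493). Beside Gpc3 it was Hprt1, with probe sets at -0.02 (0.961) and 0.18 (0.617). The latter lay higher in all SHR arrays than in any WKY array, as 8.24% of all probe sets did. The nearest measured neighbours, 3 genes from Sfrp4 and 5 from Gpc3, thus gave 0 calls by limma, with 0 at an unadjusted p under 0.05.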

How the data were processed

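Deposited by the authors was a linear intensity for each probe set, already scaled: the mean of an array with 2% trimmed from both ends was 2504 in all 6. The expression algorithm is not given in the sources used here. Settings files deposited by the authors (other values: run times and fluidics modules) gave a clock time of hybridization for each array. The 2 hybridization runs were set here from these times, split where they lay over 60 minutes apart, and the date was not used.

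Probe sets were named from the platform annotation, and symbols were checked by gene ID against the RefSeq table of GRCr8. Promoters are RefSeq's (GRCr8). Values were used as log2(intensity + 181.5), the 20th percentile of values above 0. Probe sets with a mean above the 40th percentile (5244) were tested with limma 3.58.1 in R 4.3.3 (lmFit, eBayes with trend, two-sided, Benjamini-Hochberg over all of them, threshold 0.05). A gene was represented by its brightest tested probe set.

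Members and lists were chosen with earlier results of these data known. Named were all member probe sets, called list genes or else the 4 of smallest p, the 5 most alike genes per member, and Wnt4, Igf2, Gpc1 and the Sfrp genes; others were added after their values were seen. Alternatives covered normalization, pseudocount, filter, variance model, blocks and left-out arrays. On 10 simulated tables of 5244 probe sets for SHR against WKY, limma recovered 6.27% of shifts of 0.5 (log2), 41.5% of shifts of 1 and 85.9% of shifts of 2, and 5.64% of its calls were false. The simulated noise was normal and independent between probe sets and arrays, with no effect of run or module. These rates therefore need not hold for the real calls. The number of arrays limits precision.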

Additional observations from a re-analysis of the deposited data

How the results depend on the processing

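The differences of Sfrp4 and Gpc3 (M22400_at) kept their sign in all 16 alternatives each. Since the strains did not overlap in these probe sets, left-out arrays, blocks and pseudocounts could not have changed it. Sfrp4 moved to 1.90 with 4 times the pseudocount and 1.65 within fluidics module 1; Gpc3 moved to -2.01 with a pseudocount of 1, -1.01 with 4 times the pseudocount and -1.39 within module 1. Leaving out 1 array gave 2.07 to 2.64 for Sfrp4 and -1.70 to -1.51 for Gpc3. Ctnnb1 had no probe set and gave no value. The 102 probe sets called by limma became 60 without an intensity trend, 1 within the first run only, 20 with the run and 46 with the module as a block and 36 to 59 without 1 array. With the replicate number as a block 53 were called, and Sfrp4 stayed at 2.37 and Gpc3 at -1.60. Deviations of same-numbered arrays correlated at 0.000882, 0.0105 and 0.0712, so little was shared over all tested probe sets. Whether the numbers pair arrays by design is not given by the labels, and these correlations cannot settle it. The call among beta-catenin targets went to 0 with common-median scaling, a pseudocount of 1, no trend, the replicate block, the first run alone, the run or module as a block, gene means, and 0 to 0 without 1 array (3 to 9 at an unadjusted p under 0.05 by limma). With no filter that list again gave 1 call, Axin2 in place of Fn1, and Wnt signal transduction gave 1, also Axin2; with the replicate block its adjusted p was 0.144. The call among cadherins went to 0 with no filter, no trend, the replicate block, the first run alone, the run or module as a block, and 0 to 1 without 1 array (1 to 3 at an unadjusted p under 0.05). Fits on fewer arrays, or with a block, have fewer degrees of freedom by construction; the cause of the other changes was not tested. The lists of Wnt ligands and receptors, of glypicans and of growth factors gave 0 limma calls in all 19 alternatives each (0 to 2, 0 to 2 and 1 to 4 at an unadjusted p under 0.05).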
